A study of Rattus norvegicus with 9 samples.

Results

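Neurotrophic factors and their receptors were followed across 3 groups of rat spinal cord by messenger RNA sequencing. The members were chosen by gene symbol: 9 symbols were listed, of which 8 each matched 1 of the 32623 genes in the deposited table. They were the ligands Bdnf, Ntf3, Gdnf, Cntf and Lif and the receptors Ntrk2, Ntrk3 and Ngfr. Gfra1 matched no row by that symbol and is not analysed here. The Wistar rats were all female, 8 weeks old and between 200 and 230 g in weight, and each group has 3 libraries. Sham rats had the lamina opened and an uninjured cord. C_Spinal rats had an injured cord and were given distilled water by gavage, and T_Spinal rats had an injured cord and were given 3 mL of Modified Erxian Decoction, a herbal mixture, by gavage daily. The labels name no genotype, injury method, time after injury or length of cord taken, and do not say whether the 3 libraries came from separate animals, so p-values measure the spread between libraries only.

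Neurotrophic factors are secreted proteins that keep neurons alive and shape their axons and synapses. BDNF signals mainly through the receptor tyrosine kinase TrkB (Ntrk2) and NT-3 (Ntf3) mainly through TrkC (Ntrk3), while the pan-neurotrophin receptor (Ngfr) binds all neurotrophins and, with sortilin, their uncleaved precursors. GDNF acts through a GFRalpha co-receptor and the kinase Ret. CNTF and LIF are cytokines that share the receptor chains LIFR and gp130 (Il6st) and signal through JAK kinases and STAT3.

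Total counts ranged from 56995589 to 69751015 over the 9 libraries. The labelled tissue was checked by summed FPKM (fragments per kilobase of transcript, scaled to library depth) of marker lists. In Sham, 7 oligodendrocyte markers summed to 26948 to 27152 and 11 neuronal markers to 1582 to 1628, so that both cell types of the cord were represented. Neuronal markers summed to 150.6 to 153.6 in C_Spinal and 233 to 243 in T_Spinal. The 8 microglia and macrophage markers summed to 118 to 129 in Sham, 1318 to 1337 in C_Spinal and 1402 to 1474 in T_Spinal. Of these 8, 7 were higher and 1 lower in C_Spinal than in Sham at an edgeR adjusted p below 0.05. Of all genes tested, 35.7% were higher and 34.5% lower. Between T_Spinal and C_Spinal 5 of the 8 were higher in T_Spinal and 0 lower, against 17.8% and 14.8% of all genes. In bulk tissue, fewer cells of a type and less RNA per cell cannot be told apart.

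Levels per length differed widely among the members. In Sham the order by mean FPKM was Ntrk2 at 58.9 ± 0.925 (SD, n = 3), Cntf at 20.3 ± 0.463, Ntrk3 at 9.32 ± 0.486, Ngfr at 2.36 ± 0.267, Bdnf at 0.348 ± 0.0385 and Gdnf at 0.174 ± 0.0898. Ntf3 and Lif stood lowest at means of 0.0443 and 0.0329, and these last 2 did not differ beyond their spread. In both injured groups Ngfr stood above Ntrk3, so that Ntrk2, Cntf, Ngfr and Ntrk3 followed in that order. At the low end of C_Spinal, Lif stood highest, and Gdnf, Bdnf and Ntf3 did not differ from their neighbours beyond their spread.

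**Figure D1:**
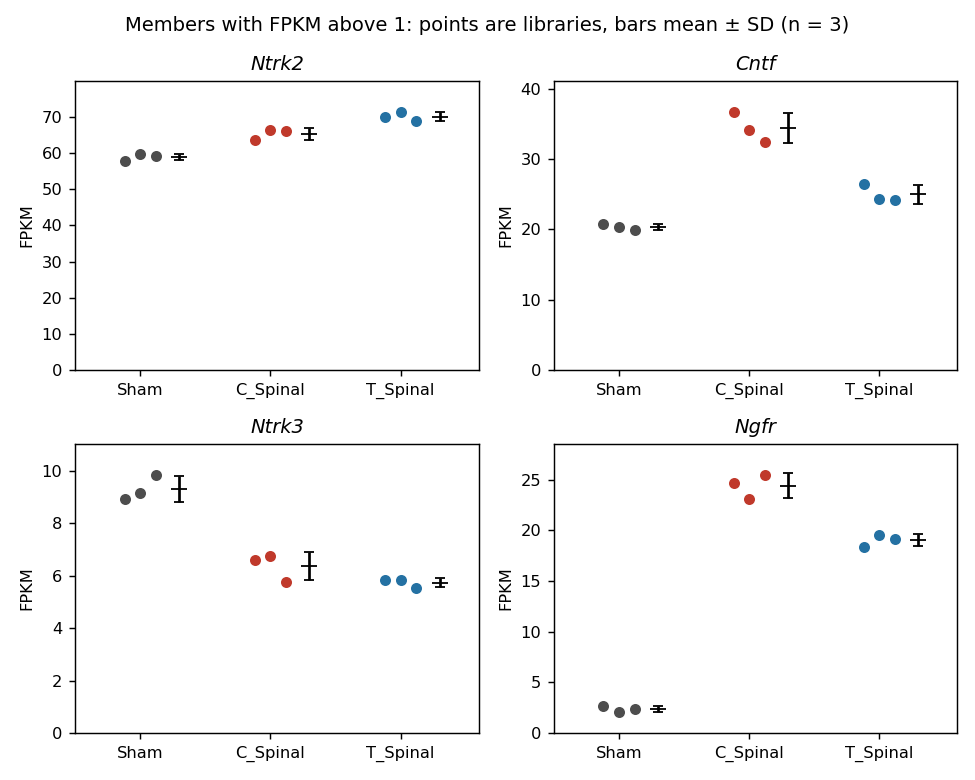
FPKM (vertical axis, from 0) of Ntrk2, Cntf, Ntrk3 and Ngfr in each library of Sham, C_Spinal and T_Spinal; points are libraries and bars are the mean ± SD of 3. Ngfr stands near 2.36 in Sham and between 18.4 and 25.5 in the injured groups, and Cntf is highest in C_Spinal.

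Of the members, 7 had a mean count of at least 10 over the 9 libraries and were tested. In C_Spinal against Sham 5 of the 7 were called at an adjusted p below 0.05, against 70.2% of all 17530 genes tested. Lif, Ngfr and Cntf were higher (35.7% of all genes were called higher), and Bdnf and Ntrk3 were lower (34.5% lower). FPKM did not overlap between these groups for 6 of 7 members, against 76.0% of all genes. In T_Spinal against C_Spinal 2 of 7 were called, Cntf and Ngfr, both lower in T_Spinal, against 32.6% of all genes called in either direction and 14.8% called lower. None was called higher, against 17.8% of all genes. Groups did not overlap for 3 of 7, against 47.7% of all genes. In T_Spinal against Sham 4 of 7 were called, Lif, Ngfr and Ntrk2 higher and Ntrk3 lower, against 65.9% of all genes in either direction, 32.7% higher and 33.2% lower. Groups did not overlap for 5 of 7, against 71.9% of all genes. The members' median log2 fold changes were 0.64, -0.19 and 0.15 in these 3 comparisons, and those of all tested genes 0.02, -0.00 and -0.02. Each comparison shares a group of libraries with each of the others.

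**Figure D2:**
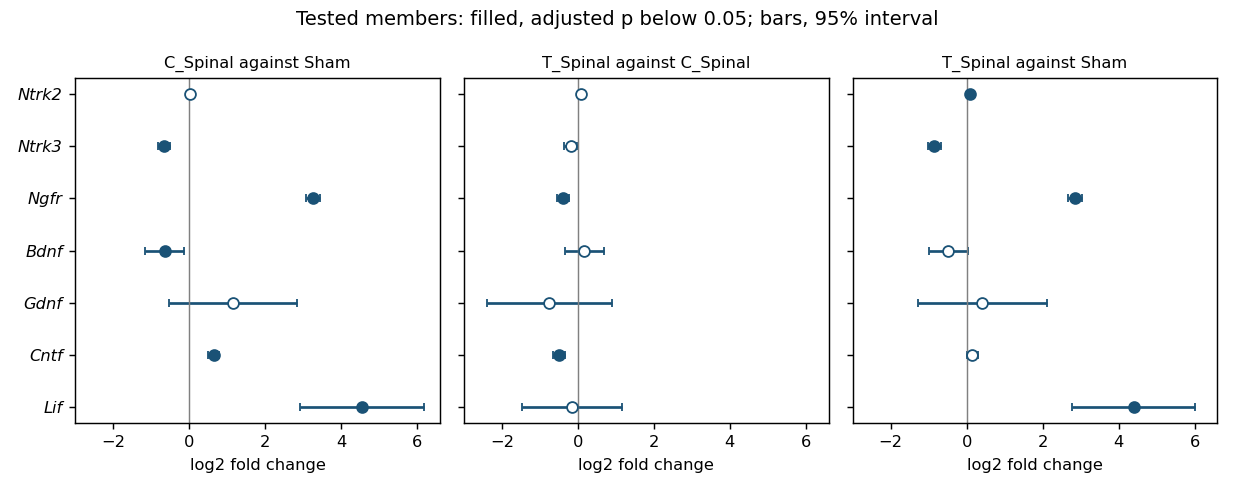
Fitted log2 fold change (horizontal axis) of the 7 tested members in the 3 comparisons; filled points have an adjusted p below 0.05 and bars are 95% intervals. Lif and Ngfr lie far to the right in both comparisons with Sham, and the intervals of Gdnf and Lif are the widest.

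BDNF, the ligand of TrkB, supports motor and sensory neurons and strengthens synapses. The deposited table places Bdnf at chr3:100768637-100819210, plus strand, in a genome build that is not given in the sources used here, as for the other positions from the table. Its transcript was scarce in all groups. The counts of Bdnf were 154, 171 and 112 in the Sham libraries, 101, 76 and 108 in C_Spinal, and 95, 147 and 110 in T_Spinal. Every C_Spinal library was below every Sham library, while T_Spinal overlapped both. Bdnf fell by 0.65 on the log2 scale in C_Spinal against Sham (SE 0.230, edgeR adjusted p = 0.0282). T_Spinal against C_Spinal gave 0.17 (95% interval -0.35 to 0.68, adjusted p = 0.637), and T_Spinal against Sham gave -0.48 (95% interval -1.0 to 0.03, adjusted p = 0.0885). The call after injury, but not its size, was lost without Sham replicate 1 or 2 or C_Spinal replicate 2 or 3 (log2 fold changes -0.53 to -0.69, adjusted p values 0.0512 to 0.0903). It was also lost with scaling by total counts (-0.53, adjusted p = 0.0606), with a replicate block (-0.64, adjusted p = 0.0571) and with limma on log2(FPKM + 1) (-0.12 on that scale, adjusted p = 0.104).

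The rat Bdnf gene has several start sites, and counts per gene do not tell which of them was used. RefSeq lists 6 windows of 300 bases for it, from 250 bases before to 50 after each start, of which 1 holds the core TGACGT of the cyclic AMP response element on either strand. That window is shown because activity-dependent transcription of Bdnf is known to act through such an element, with the match in capitals, at chr3:116637608-116637907 of GRCr8, plus strand. The first base of the match lies at -36 from the start. Of 33365 distinct windows of this length in the RefSeq table, 7.94% hold the core, and the match is a description of letters only. That share is per window, while the window shown was picked from 6 because it held the core, and some of the 6 overlap. Of the other 5 windows, 1 holds the AP-1 motif TGANTCA and 1 the STAT motif TTCNNNGAA.
Bdnf: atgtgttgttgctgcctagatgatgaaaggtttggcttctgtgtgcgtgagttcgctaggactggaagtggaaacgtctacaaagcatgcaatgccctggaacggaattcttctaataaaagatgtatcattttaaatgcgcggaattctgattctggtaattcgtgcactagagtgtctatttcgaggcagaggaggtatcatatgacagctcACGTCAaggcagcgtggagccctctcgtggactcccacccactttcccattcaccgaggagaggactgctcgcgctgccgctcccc

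NT-3, the ligand of TrkC, supports proprioceptive neurons. Ntf3 had too few counts to be tested: 16, 0 and 0 in Sham, 8, 32 and 6 in C_Spinal, and 0, 11 and 0 in T_Spinal. It had counts in all 3 C_Spinal libraries and in 1 library of each other group, and the groups overlapped. A count of 0 allows up to 3 counts in that library, counting error only.

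GDNF, a survival factor of motor neurons, was also scarce. Gdnf counts were 12, 4 and 10 in Sham, 9, 22 and 31 in C_Spinal, and 9, 7 and 24 in T_Spinal, and all groups overlapped. The log2 fold change was 1.16 in C_Spinal against Sham (95% interval -0.52 to 2.84, adjusted p = 0.194) and -0.75 in T_Spinal against C_Spinal (95% interval -2.39 to 0.89, adjusted p = 0.486). The first interval holds a large rise and the other a large fall, so neither is shown nor bounded closely at these counts.

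**Figure D3:**
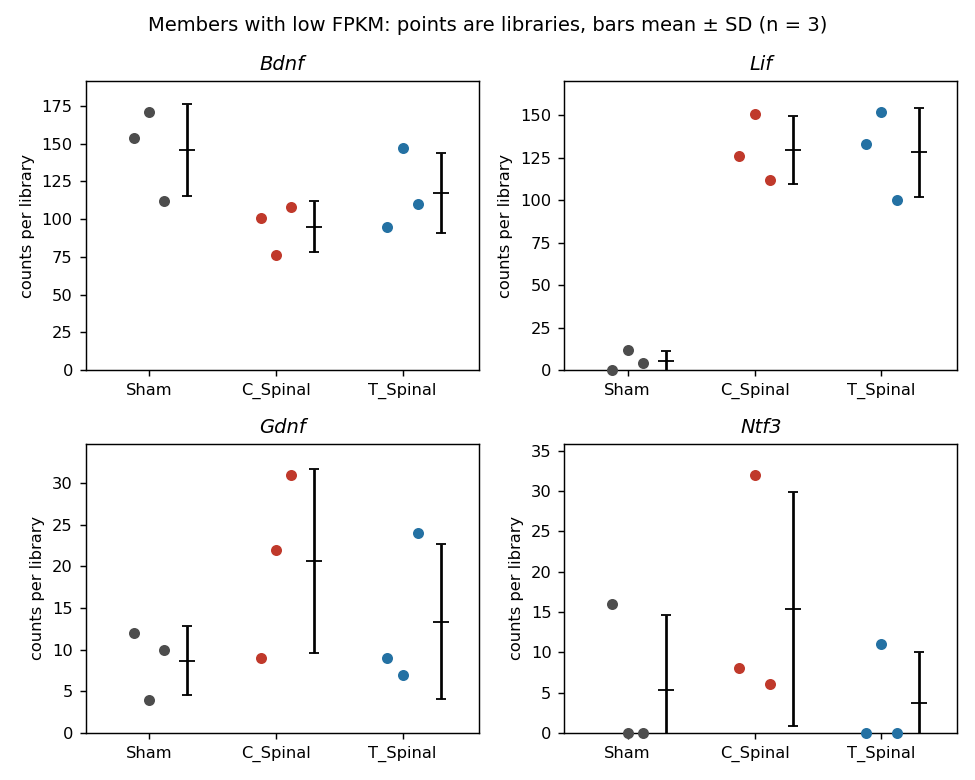
Counts per library (vertical axis, from 0) of Bdnf, Lif, Gdnf and Ntf3 in Sham, C_Spinal and T_Spinal; points are libraries and bars are the mean ± SD of 3, with bars of Ntf3 and Lif that reach below 0 ended at 0. Lif has 0 to 12 counts in Sham and 100 to 152 in the injured groups, and the other 3 genes overlap between at least a pair of groups.

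LIF, a cytokine made by glia and leukocytes after nerve damage, had the largest fold change of the tested members in both comparisons with Sham (chr14:84482674-84500642, plus strand). Lif counts were 0, 12 and 4 in Sham, 126, 151 and 112 in C_Spinal, and 133, 152 and 100 in T_Spinal. Both injured groups stood apart from Sham and overlapped each other. Lif rose by 4.55 on the log2 scale in C_Spinal against Sham (SE 0.730, adjusted p = 0.000256) and was 4.39 above Sham in T_Spinal (SE 0.727, adjusted p = 0.000353). The 2 injured groups differed by -0.16 (95% interval -1.46 to 1.15, adjusted p = 0.871), so a moderate difference between them was not detectable. With few counts in Sham the size of the rise is uncertain: over the alternatives that test counts or FPKM it ran from 0.88, on log2(FPKM + 1), to 5.83.

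CNTF is a survival factor of motor neurons held in astrocytes and myelinating Schwann cells (chr1:229599009-229601032, minus strand, in the deposited table). The FPKM of Cntf was 20.8, 20.4 and 19.9 in Sham, 36.7, 34.2 and 32.5 in C_Spinal, and 26.5, 24.3 and 24.2 in T_Spinal. The 3 groups did not overlap, with T_Spinal between the other two. Cntf rose by 0.64 in C_Spinal against Sham (SE 0.0670, edgeR adjusted p = 9.63e-06) and stood at -0.49 on the log2 scale in T_Spinal against C_Spinal (SE 0.0668, adjusted p = 0.000347). Both calls held under all 17 alternatives. T_Spinal against Sham gave 0.15 (95% interval -0.00 to 0.30, adjusted p = 0.0767), which became a call with total-count scaling (0.29), with limma (0.28), in the fit of these 2 groups alone (0.19) and with a replicate block (0.15). Total-count scaling moved the median of all genes in T_Spinal against Sham from -0.02 to 0.13.

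Of the cells that hold CNTF, Schwann cells had markers that moved as Cntf did in C_Spinal against Sham and in T_Spinal against C_Spinal. They did not do so in T_Spinal against Sham, and astrocyte markers were mixed. In C_Spinal against Sham 35.7% of all genes were called higher and 34.5% lower, and in T_Spinal against C_Spinal 17.8% and 14.8%. Of 10 Schwann cell markers, 10 rose in C_Spinal against Sham and 10 fell in T_Spinal against C_Spinal, with medians of 1.14 and -1.61. In T_Spinal against Sham 3 of them were called higher and 5 lower, with a median of -0.21. There 32.7% of all genes were called higher and 33.2% lower, and Cntf had 0.15. The Schwann cell markers summed to 546 to 566 FPKM in Sham, 1148 to 1169 in C_Spinal and 325 to 345 in T_Spinal, and none of them was at 0. Of 9 astrocyte markers 2 rose and 4 fell in C_Spinal against Sham, with a median of -0.00, and 5 were higher and 2 lower in T_Spinal against C_Spinal, with a median of 0.14. Their summed FPKM, 1928 to 2297 in Sham, 3440 to 3478 in C_Spinal and 3578 to 3816 in T_Spinal, is mostly that of Gfap, the astrocyte filament, which rose by 0.90 after injury, while Slc1a2, a glutamate transporter, had -2.01. The astrocyte markers Aqp4 and Slc1a3 varied widely within groups. Aqp4 was at 72.4, 82.9 and 414 FPKM in Sham and 77.7, 74.0 and 383 in T_Spinal, which sets the upper ends of those summed ranges. Slc1a3 was at 41.0, 16.4 and 15.7 in C_Spinal and 26.4, 72.1 and 30.7 in T_Spinal. The part of Schwann cells or astrocytes in the Cntf result was not tested.

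Cntf was the only member called in both steps for which RefSeq gives a start window here, and 5 of the 9 listed symbols matched the RefSeq promoter table in all. The window lies at chr1:219314486-219314785 of GRCr8, minus strand, and holds 1 match to TGANTCA, the motif of the injury-responsive AP-1 factors, searched on both strands and shown in capitals. The match begins at -72 from the start, and 7.34% of the windows hold one. Neither TTCNNNGAA, the STAT motif, nor TGACGT occurred in it, against 8.88% and 7.94% of windows.
Cntf: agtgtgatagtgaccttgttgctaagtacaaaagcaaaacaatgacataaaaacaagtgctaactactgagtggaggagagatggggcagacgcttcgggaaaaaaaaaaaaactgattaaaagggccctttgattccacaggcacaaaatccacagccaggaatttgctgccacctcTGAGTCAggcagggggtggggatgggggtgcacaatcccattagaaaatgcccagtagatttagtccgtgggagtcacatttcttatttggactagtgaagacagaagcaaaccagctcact

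TrkB, encoded by Ntrk2, is the BDNF receptor, and a truncated form without the kinase is abundant in astrocytes. The gene spans chr17:5933729-6244676, minus strand, in the deposited table. Counts per gene hold both forms together. The FPKM of Ntrk2 was 57.8, 59.6 and 59.2 in Sham, 63.4, 66.4 and 65.9 in C_Spinal, and 70.0, 71.3 and 68.6 in T_Spinal. The 3 groups did not overlap, but the steps were small. After TMM scaling (trimmed mean of M values) the log2 fold change was 0.03 in C_Spinal against Sham (95% interval -0.03 to 0.09, adjusted p = 0.348). It was 0.07 in T_Spinal against C_Spinal (95% interval 0.00 to 0.13, adjusted p = 0.0953) and 0.10 in T_Spinal against Sham (SE 0.0283, adjusted p = 0.0105), the 1 call among them. Both missing calls depended on the scaling. With total counts alone the values were 0.15 and 0.10 (adjusted p = 0.000787 and 0.0238), where the median of all genes stood at 0.14 and 0.03. Astrocyte markers were mixed in these comparisons, as given above, and their part in the Ntrk2 values was not tested.

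TrkC, encoded by Ntrk3, is the NT-3 receptor of proprioceptive and other neurons (chr1:139890560-140262503, minus strand). The FPKM of Ntrk3 was 8.92, 9.17 and 9.86 in Sham, 6.62, 6.77 and 5.77 in C_Spinal, and 5.84, 5.84 and 5.54 in T_Spinal. All injured libraries were below all Sham libraries, and C_Spinal replicate 3 fell within the range of T_Spinal. Ntrk3 fell by 0.66 on the log2 scale in C_Spinal against Sham (SE 0.0752, adjusted p = 1.88e-05) and stood at -0.85 in T_Spinal against Sham (SE 0.0754, adjusted p = 3.17e-06). T_Spinal against C_Spinal gave -0.19 (95% interval -0.35 to -0.02, adjusted p = 0.0861), and -0.25 without C_Spinal replicate 3 (adjusted p = 0.0260). In that comparison 11 of 11 neuronal markers were higher in T_Spinal, against 17.8% of all genes, with a median log2 fold change of 1.04. In C_Spinal against Sham 11 of 11 were lower, against 34.5% of all genes, with a median of -3.76. Their part in the Ntrk3 values was not tested.

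Ngfr, the receptor that binds every neurotrophin and is carried by immature and denervated Schwann cells among others, showed the largest change of the receptors (chr10:83389847-83408061, minus strand). Its FPKM was 2.61, 2.08 and 2.39 in Sham, 24.7, 23.1 and 25.5 in C_Spinal, and 18.4, 19.6 and 19.2 in T_Spinal. No groups overlapped. Ngfr rose by 3.25 on the log2 scale in C_Spinal against Sham (SE 0.0844, adjusted p = 1.78e-10), a 9.54-fold rise. In T_Spinal it was lower than in C_Spinal, at -0.39 on the log2 scale (SE 0.0760, adjusted p = 0.00316), and still 2.86 above Sham (SE 0.0832, adjusted p = 5.42e-10). These calls held under all 17 alternatives.

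The balance of Ngfr to Ntrk2 moved in the same direction, as a ratio of FPKM values that does not depend on library scaling. Because Ntrk2 changed little, this ratio largely restates the Ngfr change and is not separate evidence. The ratio was 0.0451, 0.0349 and 0.0403 in Sham, 0.389, 0.347 and 0.387 in C_Spinal, and 0.262, 0.275 and 0.279 in T_Spinal. The groups did not overlap, although an exact permutation test of 3 against 3 cannot give a two-sided p below 0.1. The ratio of Ntrk3 to Ntrk2 was 0.158 ± 0.00712 (SD, n = 3) in Sham, 0.0980 ± 0.00903 in C_Spinal and 0.0820 ± 0.00135 in T_Spinal, and its groups did not overlap either. Ntrk3 alone did overlap between C_Spinal and T_Spinal. Between C_Spinal and T_Spinal the change of Ngfr, -0.39, stands beside changes of -0.91 to -2.16 in the 10 Schwann cell markers, and the difference between these was not tested. In T_Spinal against Sham Ngfr was called higher, where the Schwann cell markers had a median of -0.21. Both ratios were chosen after the values were seen, and the part of Schwann cells in the Ngfr result was not tested.

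**Figure D4:**
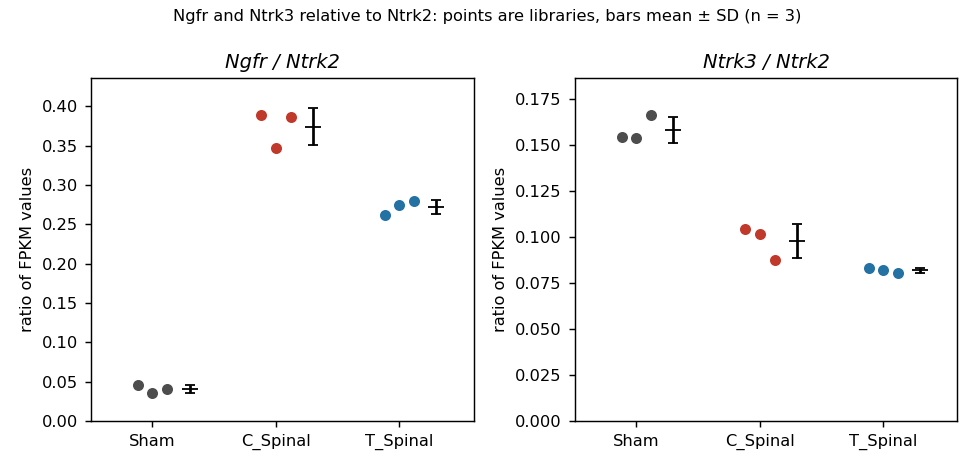
Ratio of FPKM of Ngfr to Ntrk2 (left) and of Ntrk3 to Ntrk2 (right) in each library; points are libraries and bars are the mean ± SD of 3. The ratio of Ngfr is highest in C_Spinal, from 0.347 to 0.389, and that of Ntrk3 is highest in Sham, at a mean of 0.158.

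The other genes of these pathways were taken from lists of 85 symbols, of which 82 genes were tested. In C_Spinal against Sham 35 were higher and 37 lower, with a median log2 fold change of -0.05. In T_Spinal against C_Spinal 24 were higher and 20 lower, with a median of 0.01. The shares called, 72 and 44 of 82, stand beside the 70.2% and 32.6% of all genes given above. In C_Spinal against Sham 35.7% of all genes were called higher and 34.5% lower, and in T_Spinal against C_Spinal 17.8% and 14.8%. These shares stand beside each directional count of the pathway and marker lists below.

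**Figure D5:**
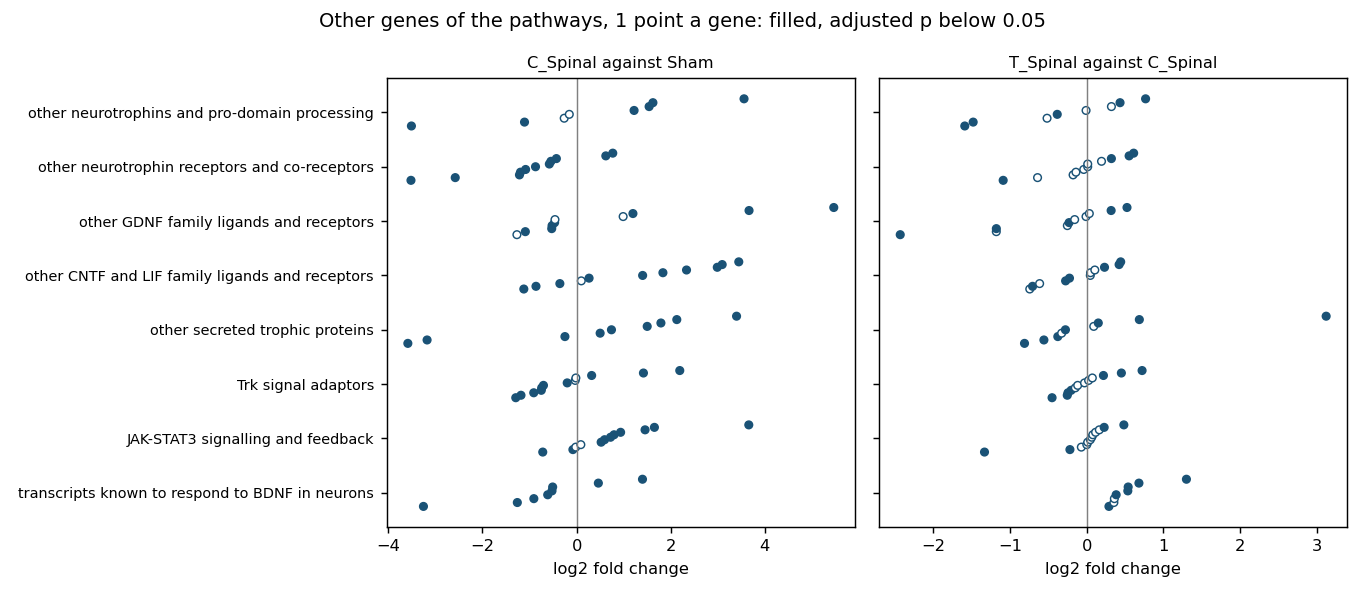
Fitted log2 fold change (horizontal axis) of each tested pathway gene by list, in C_Spinal against Sham (left) and T_Spinal against C_Spinal (right); filled points have an adjusted p below 0.05, and Gfral, absent from both injured groups, is left out. Transcripts known to respond to BDNF lie to the right of 0 in the right panel.

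Among other neurotrophins and the enzymes that process them, 4 of 8 tested genes rose after injury and 2 fell. Furin, which cleaves proneurotrophins inside cells, rose by 1.54 (SE 0.0534), and Plat, the plasminogen activator of the extracellular route, by 1.22 (SE 0.0430). Pcsk2, a convertase of neuronal granules, had -3.51 (SE 0.132). In T_Spinal against C_Spinal 2 were higher and 3 lower. Pcsk5, another convertase, had -1.59 (SE 0.154, adjusted p = 3.88e-05) and had 1.42 ± 0.0272 FPKM in Sham, against 4.74 ± 0.117 in C_Spinal and 1.61 ± 0.410 in T_Spinal. Ntf4 did not reach the count minimum.

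Other neurotrophin receptors and co-receptors mostly fell after injury: 9 of 11 were lower and 2 higher in C_Spinal than in Sham, with a median of -0.87. Sorcs3, a sortilin relative, had -2.58 (SE 0.171). Sort1, sortilin itself, measured 93.3 ± 2.96 FPKM in Sham, against 47.8 ± 0.899 in C_Spinal and 74.7 ± 0.991 in T_Spinal, with -1.08 (SE 0.0285) after injury and 0.61 (SE 0.0283, adjusted p = 3.58e-07) in T_Spinal against C_Spinal. Bex3, a partner of the Ngfr intracellular domain, had -1.19 after injury (SE 0.10). Rtn4r, the Nogo receptor, rose by 0.62 (SE 0.146) and had -1.09 in T_Spinal against C_Spinal (SE 0.147, adjusted p = 0.000341), where 3 of the list were higher and 1 lower. Sorcs3 had 0.55 there (SE 0.165, adjusted p = 0.0277), a call lost without C_Spinal replicate 1 (0.42) and without T_Spinal replicate 2 or 3 (0.40 and 0.56), with limma (0.27) and in the fit of these 2 groups alone (0.55).

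In the GDNF family, 3 of 11 other genes rose after injury and 5 fell. The co-receptor of artemin, Gfra3, had 33, 23 and 22 counts in Sham, 281, 344 and 398 in C_Spinal, and 53, 77 and 78 in T_Spinal. Each group stood apart. Gfra3 rose by 3.66 in C_Spinal against Sham (SE 0.238, adjusted p = 2.12e-07) and had -2.43 in T_Spinal against C_Spinal (SE 0.222, adjusted p = 2.59e-05), the largest fall of the pathway genes in that comparison. Schwann cell markers moved the same way in both, as given above, and so did fibroblast and meningeal markers, with medians of 3.42 and -1.16. In T_Spinal against Sham, where Gfra3 stood higher, the medians were -0.21 for Schwann cells and 2.26 for fibroblasts and meninges. The part of these cells was not tested. Gdf15, a stress-induced relative of the TGF-beta family, was at 0.584 ± 0.217, 28.3 ± 2.69 and 12.8 ± 1.25 FPKM, with 5.46 (SE 0.239, adjusted p = 9.21e-09) and -1.18 (SE 0.190, adjusted p = 0.00106). Its receptor Gfral had 55, 33 and 63 counts in Sham and none in the 6 injured libraries, at least 17.6-fold lower in C_Spinal against a floor of 3 counts per library (adjusted p = 0.000894). Ncam1, an adhesion molecule that can bind GDNF, had -1.09 after injury (SE 0.0336) and 0.53 in T_Spinal against C_Spinal (SE 0.0333). The proteoglycan Sdc3 had -0.53 (SE 0.0482) and -0.23 (SE 0.0482, adjusted p = 0.00482). In T_Spinal against C_Spinal 2 of the 11 were higher and 3 lower.

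Among other ligands and receptors of the CNTF and LIF family, 7 of 11 rose after injury and 3 fell, with a median of 1.40. Clcf1, a second ligand of the CNTF receptor, was at 0.310 ± 0.165, 3.75 ± 0.108 and 2.50 ± 0.318 FPKM and rose by 3.45 (SE 0.313, adjusted p = 3.14e-06). Osm, oncostatin M of leukocytes, rose by 3.09 (SE 0.282). Ctf1, cardiotrophin, had 1.40 after injury (SE 0.200) and -0.71 in T_Spinal against C_Spinal (SE 0.196, adjusted p = 0.0197), a call lost when C_Spinal replicate 1 or 2, or else T_Spinal replicate 1 or 3, was left out (adjusted p 0.0523 to 0.0682). The CNTF-binding chain Cntfr fell from 26.4 ± 1.62 FPKM to 15.7 ± 0.563, or -0.86 on the log2 scale (SE 0.0684). The common chain Il6st was at 37.1 ± 1.38, 43.1 ± 0.827 and 59.1 ± 2.90, with 0.10 after injury (SE 0.0410, adjusted p = 0.0520) and 0.42 in T_Spinal against C_Spinal (SE 0.0410, adjusted p = 3.89e-05). The value of Il6st after injury lay close to the threshold and became a call under 7 of 17 alternatives, among them total-count scaling (0.22), limma (0.21), the 2 groups alone (0.10) and a replicate block (0.10, adjusted p = 0.0473). Il6r, the IL-6 receptor, had 1.83 (SE 0.0602) and 0.44 (SE 0.0577, adjusted p = 0.000272). In T_Spinal against C_Spinal 3 were higher and 3 lower. Il6 did not reach the count minimum.

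Of 12 genes of JAK-STAT3 signalling 8 rose after injury and 2 fell, with a median of 0.66. Socs3, the feedback inhibitor induced by STAT3, was at 1.13, 1.05 and 1.19 FPKM in Sham, 16.1, 14.0 and 16.5 in C_Spinal, and 17.5, 17.0 and 13.6 in T_Spinal. It rose by 3.66 (SE 0.139, adjusted p = 2.99e-09) and had 0.01 in T_Spinal against C_Spinal (SE 0.121, adjusted p = 0.951), where the groups overlapped. Ptpn11, a phosphatase that couples receptors to RAS, had -0.72 (SE 0.0233) after injury and 0.23 in T_Spinal against C_Spinal. The other fall counted, Jak1 at -0.08 (adjusted p = 0.0372), turned to 0.039 with total-count scaling. That call was also lost without any 1 of the Sham libraries, C_Spinal replicate 2 or 3 or T_Spinal replicate 2 (adjusted p 0.0523 to 0.137), and with a replicate block (adjusted p = 0.0687). With no count minimum, and in the fit of these 2 groups alone, it was lost as well (each adjusted p = 0.0655). It was lost or turned under 11 of 17 alternatives. Jak1 was higher in T_Spinal than C_Spinal by 0.48 (SE 0.0299, adjusted p = 2.09e-06), at 65.4 ± 1.45 against 45.7 ± 1.05 FPKM. Socs1 had 1.45 after injury (adjusted p = 0.0140), lost without C_Spinal replicate 1 (adjusted p = 0.0520), and -1.33 in T_Spinal against C_Spinal (adjusted p = 0.0428), lost without Sham replicate 3, C_Spinal replicate 1 or 3, or else T_Spinal replicate 2 or 3 (adjusted p 0.0531 to 0.133), and with a replicate block (adjusted p = 0.0709). There 2 of the 12 were higher and 2 lower.

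Of 12 Trk adaptors 7 fell and 3 rose after injury, with a median of -0.45. Shc1, the broadly expressed adaptor, was at 9.73 ± 1.25 FPKM in Sham, against 48.2 ± 1.74 in C_Spinal and 41.4 ± 0.903 in T_Spinal, and rose by 2.19 (SE 0.0790, adjusted p = 2.04e-09). Shc4 rose by 1.42 (SE 0.132). Shc3, the neuronal adaptor, was higher in T_Spinal than C_Spinal by 0.72 (SE 0.139, adjusted p = 0.00297). Gab1, a docking protein that recruits PI3K, had -0.74 after injury (SE 0.0396) and 0.45 in T_Spinal against C_Spinal (SE 0.0395, adjusted p = 1.92e-05). Grb2, which links receptors to RAS, had -0.20 and 0.22, of which the first was lost with total-count scaling (-0.08). In T_Spinal against C_Spinal 3 were higher and 4 lower. Shc4 (-0.45, adjusted p = 0.0228) was lost there without C_Spinal replicate 3 or T_Spinal replicate 1 or 3, and Shc1 (-0.25, adjusted p = 0.0265) without any 1 of C_Spinal replicate 1 or 2 or T_Spinal replicate 1, 2 or 3.

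Transcripts known to respond to BDNF in neurons were lower in 6 of 8 cases and higher in 2 after injury (median -0.57), and in T_Spinal against C_Spinal 6 of 8 were higher and none lower (median 0.46). Arc, a protein of active synapses, was at 2.54, 2.80 and 2.95 FPKM in Sham, 0.222, 0.278 and 0.424 in C_Spinal, and 0.846, 0.819 and 0.695 in T_Spinal, and no groups overlapped. It had -3.25 after injury (SE 0.234, adjusted p = 4.87e-07) and 1.30 in T_Spinal against C_Spinal (SE 0.224, adjusted p = 0.00154). Egr1, an activity-induced transcription factor, had -0.91 (SE 0.0770) and 0.68 (SE 0.0768, adjusted p = 0.000108). Fos, another, rose by 0.46 (SE 0.0795) and by 0.38 (SE 0.0791), and Dusp6, a phosphatase that limits ERK, by 1.40 (SE 0.0704) and 0.29 (SE 0.0685). These genes answer to many signals besides BDNF. Neuronal markers moved in the direction of the list's median in both comparisons, but opposite to Fos and Dusp6 after injury. The part of neurons in these values was not tested.

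Other secreted trophic proteins rose in 6 of 9 cases after injury and fell in 3. Ptn, pleiotrophin, was at 110.0 ± 1.04 FPKM in Sham, against 413 ± 10.8 in C_Spinal and 287 ± 15.8 in T_Spinal, and its relative Mdk, midkine, at 29.5 ± 1.16, 140.0 ± 2.07 and 81.6 ± 5.87. Ptn rose by 1.79 (SE 0.0407) and Mdk by 2.13 (SE 0.0584), and they had -0.56 (SE 0.0395) and -0.81 (SE 0.0560) in T_Spinal against C_Spinal, with adjusted p values of 4.70e-06 and 4.09e-06. Fibroblast and meningeal markers moved in the same directions: of 6 in the deposited table, 5 rose after injury and 5 were lower in T_Spinal than C_Spinal, with medians of 3.42 and -1.16. Their summed FPKM was 83.4 to 90.7 in Sham, 1231 to 1317 in C_Spinal and 556 to 581 in T_Spinal, with none at 0. Their part in these results and in those of Cntf, Ngfr and Gfra3, which moved likewise, was not tested. Hgf, hepatocyte growth factor, rose by 3.40 (SE 0.228). Cdnf, a trophic protein of the endoplasmic reticulum, had 180, 131 and 143 counts in Sham, 24, 8 and 6 in C_Spinal, and 99, 103 and 174 in T_Spinal. C_Spinal stood apart below both other groups. Cdnf had -3.59 after injury (SE 0.518, adjusted p = 0.000118) and 3.12 in T_Spinal against C_Spinal (SE 0.511, adjusted p = 0.00115). In that comparison 3 of the 9 were higher and 4 lower.

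The genes most like each well-measured member were found by Pearson's r of log2(FPKM + 1) over the 9 libraries, among 12979 other genes. The libraries fall into 3 groups, so such values are high for many genes and are given as a description. Nearest to Ngfr were Mmp14, a membrane-bound matrix protease (r = 0.999), Erp29 and Usp18. Nearest to Cntf were Icam2 (r = 0.992), Amotl2 and Slx4, and nearest to Ntrk3 were Ttc9 (r = 0.988), Tpbg and Trpm3. For Ntrk2 they were Trib1 (r = 0.992), Dnm2 and Rbm22. Mmp14 stood at means of 7.02 FPKM in Sham, against 77.7 in C_Spinal and 59.0 in T_Spinal.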

How the data were processed

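Per the labels' protocols, poly(A) RNA from spinal cord was made into stranded paired-end libraries, and per the submitters' processing notes HISAT and StringTie were used. The sources used here do not give their versions, the annotation release, the reference build or whether counting used strand. The authors deposited whole-number counts per gene and FPKM for each library, with genes of count 0 listed at an FPKM of 0.0001. Levels are the deposited FPKM, or counts where FPKM is low.

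The 17530 genes with a mean count of at least 10 over the 9 libraries were scaled by TMM. All 9 libraries entered 1 edgeR quasi-likelihood fit (version 4.0.16, R 4.3.3) without covariates. Adjusted p values are Benjamini-Hochberg over all tested genes, two-sided, called below 0.05. The function was tested on simulated data. In these few genes changed, as many up as down, while 70.2% of genes were called in C_Spinal against Sham. The simulated data therefore do not bear on the choice of scaling. The alternatives used DESeq2 1.42.0 and limma 3.58.1, with a pseudocount of 1. No other row of the table overlapped the 8 members. Promoter windows are from RefSeq. Figures were drawn with matplotlib 3.10.9. The members and lists were chosen with earlier results of these data known. Named pathway genes are, per list, the 2 with the highest mean FPKM and the 2 largest called changes in each of C_Spinal against Sham and T_Spinal against C_Spinal, and Ret, Ntf4, Il6, Gfap and Snap25 were added after their values were seen. The cell type markers Slc1a2, Aqp4, Slc1a3, Prph, Eno2 and Slc6a5 were also named outside this rule. Some genes that the rule selects are not reported here. Genes like a member had to carry a symbol and a mean FPKM of at least 1.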

Additional observations from a re-analysis of the deposited data

How the results depend on the processing

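The count of members lower in C_Spinal than Sham went from 2 to 1 with total counts alone, with limma on log2(FPKM + 1), with a replicate block and with a minimum mean FPKM of 1, which tests 4 members. It was 1 to 2 when each library was left out in turn. Bdnf was the member lost each time, not tested under the FPKM minimum. The count of members higher in T_Spinal than C_Spinal went from 0 to 1, Ntrk2, with DESeq2 size factors, with total counts alone, with the DESeq2 Wald test and with limma. In the reported edgeR fit Ntrk2 had an unadjusted p of 0.0377 there, and it was the 1 member higher at an unadjusted p below 0.05. Jak1 in C_Spinal against Sham turned from -0.08 to 0.039 with total counts alone and to 0.037 with limma, and no other called member or pathway gene chosen by the naming rule turned its direction. Ret, Gfap, Snap25, Slc1a2, Aqp4, Slc1a3, Prph, Eno2 and Slc6a5 were not run. Leaving out each library gave 33 to 36 pathway genes higher and 35 to 37 lower after injury, and 22 to 25 higher and 14 to 21 lower in T_Spinal against C_Spinal. Total-count scaling moved the median of all genes in C_Spinal against Sham from 0.02 to 0.14. It moved the share of calls that were higher in T_Spinal against Sham from 49.6% to 59.3%.

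The labels do not say whether the replicate numbers in the titles pair the libraries. Deviations of same-numbered libraries from their group means correlated at -0.06 to 0.05, and of others at -0.09 to 0.08. These values gave no sign of pairing, but they cannot show that same-numbered libraries shared nothing. With a replicate block the log2 fold change of Bdnf after injury was -0.64 (adjusted p = 0.0571), that of Cntf in T_Spinal against Sham 0.15 (adjusted p = 0.0485), and that of Socs1 in T_Spinal against C_Spinal -1.37 (adjusted p = 0.0709). After injury the block also ended the call of Jak1 (adjusted p = 0.0687) and made one of Il6st (adjusted p = 0.0473), and it changed no other call among these genes. Depth limits Ntf3 and Gdnf, with at most 32 counts in a library.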

Other observations

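Members were also set against a transcript of a cell type that carries them, as ratios of FPKM within a library, chosen after the values were seen and not tested. Ntrk3 relative to Snap25, a neuronal vesicle fusion protein, was 0.0170 ± 0.00150 (SD, n = 3) in Sham, 0.203 ± 0.0162 in C_Spinal and 0.0880 ± 0.00349 in T_Spinal. Snap25 had a log2 fold change of -4.24 after injury, far beyond that of Ntrk3. Of the other neuronal markers, Eno2 was at means of 132.5, 30.3 and 36.7 FPKM in Sham, C_Spinal and T_Spinal. Slc6a5 was at 27.1, 0.603 and 2.45, so the size of this ratio depends on the marker chosen. Cntf relative to Gfap was 0.0143 ± 0.000338, 0.0120 ± 0.000696 and 0.00796 ± 0.000362 in the same order. Gfap is 1 of 9 astrocyte markers, of which 2 rose and 4 fell in C_Spinal against Sham. Slc1a2, another of them, was at means of 150.3, 40.4 and 71.9 FPKM, so the direction of such a ratio depends on the marker chosen. The groups did not overlap in the ratio to Snap25 or in that to Gfap. Ret, the kinase of GDNF receptors and a motor neuron transcript, was at 16.9 ± 1.31, 12.8 ± 0.430 and 16.3 ± 0.487 FPKM, with -0.52 (SE 0.0540, edgeR adjusted p = 9.02e-06) after injury and 0.32 (SE 0.0539, adjusted p = 0.00141) in T_Spinal against C_Spinal. The 6 motor neuron markers summed to 95.1 to 102 FPKM in Sham, 19.2 to 21.2 in C_Spinal and 24.1 to 26.02 in T_Spinal. Most of the sum was that of Prph, at means of 61.9, 14.3 and 17.0 FPKM. In T_Spinal against C_Spinal 2 of the 6 were called higher, against 17.8% of all genes, and 0 lower, with a median log2 fold change of 0.07. Their part in the Ret values was not tested.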
